A study of Homo sapiens with 7 samples.

Results

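The genes described here are the 9 genes that make, salvage, divert and use UDP-GlcNAc for the O-GlcNAc modification of intracellular proteins. They are GFPT1, GFPT2, GNPNAT1, PGM3, UAP1, NAGK, GNE, OGT and MGEA5. They were picked by symbol from a table of 63655 genes, on chromosomes 1 to 22 or X, and each symbol matched 1 row. All 9 were among the 24822 genes that the authors tested. The list was drawn up with the contrast between the table's conditions already known, so the members' own values and calls in that contrast are given as a description. RNA was sequenced from HEK293, a long-established cell line from human embryonic kidney, whose cells carried FLAG-HA tagged CNBP. CNBP, a small protein with zinc knuckles, binds RNA and DNA stretches rich in G. The labels list 4 samples with CNBP knockdown and 3 with control knockdown, all in the same tagged line. The knockdown titles carry paired numbers that the labels do not explain, so the 4 samples may be 2 pairs rather than 4 independent samples. The table holds 1 pooled value for each of 2 conditions headed siRNA and OE. No label explains OE, and which samples entered each condition is not stated. The heading siRNA is taken here to mean CNBP knockdown, which the heading and the design text imply but do not state. If OE marks cells that overexpress CNBP, each difference combines overexpression with knockdown.

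UDP-GlcNAc is the end product of the hexosamine pathway, which branches from glycolysis at fructose 6-phosphate. GFPT1 or GFPT2 adds an amino group from glutamine, GNPNAT1 adds an acetyl group from acetyl-CoA, PGM3 moves the phosphate, and UAP1 joins the sugar to UTP. OGT then places single GlcNAc residues on serine and threonine of nuclear and cytoplasmic proteins, and MGEA5, now named OGA, takes them off. The same sugar nucleotide feeds N-glycans, GPI anchors, hyaluronan and, through GNE, sialic acid.

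The targeted gene differed between the conditions. CNBP stood at 45.5 FPKM in siRNA and 579.8 FPKM in OE. From these values, knockdown in siRNA cannot be told apart from overexpression in OE, and both may include reads of the tagged copy. FPKM counts fragments scaled to transcript length and to the mapped fragments of a library, so levels of different genes are compared per length. Of 5 embryonic kidney transcription factor genes, all were tested, between 1.99 and 12.8 FPKM in siRNA and between 1.37 and 11.1 FPKM in OE. The liver genes ALB and APOA1 and the blood genes PTPRC and CD3E stood at or below 0.125 FPKM in both conditions. The fibroblast genes COL1A1 and DCN stood at 4.79 and 2.94 FPKM in siRNA, against 6.60 and 4.24 FPKM in OE. The table gives no value per sample, so no SD or n accompanies any level, and the depth of each sample is unknown.

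The coding sequence starts of the genes that carry the main difference, and of the paralog pair at the entry step, are shown because the series concerns binding of CNBP to G-rich elements near translation start sites. Each is the leading 99 bases of 1 annotated coding sequence (GENCODE 29, GRCh38), 5′ to 3′ on the transcript strand, with GGAG in capitals.
GNPNAT1: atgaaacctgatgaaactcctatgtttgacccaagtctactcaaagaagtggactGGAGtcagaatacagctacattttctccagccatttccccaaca
UAP1: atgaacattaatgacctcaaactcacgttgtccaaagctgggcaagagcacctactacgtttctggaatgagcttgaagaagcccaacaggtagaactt
GFPT1: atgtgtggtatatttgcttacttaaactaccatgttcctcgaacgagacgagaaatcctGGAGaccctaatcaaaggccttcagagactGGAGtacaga
GFPT2: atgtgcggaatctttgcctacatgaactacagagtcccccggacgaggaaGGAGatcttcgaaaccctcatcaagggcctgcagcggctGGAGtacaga

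GNPNAT1 held 1 GGAG in this window, UAP1 held none, and GFPT1 and GFPT2 held 2 each. GGAG was searched on the transcript strand only, with overlapping matches counted. Of the 9 genes, 6 held it, beside 60.1% of 12913 expressed coding genes. G made up 16.2% of the GNPNAT1 window and 21.2% of the UAP1 window, against a median of 30.3% over those coding genes. MGEA5 had 39.4% G with 5 matches, and NAGK had 48.5% G with 5 matches in the transcript chosen. The GFPT1 and GFPT2 windows were identical at 74 of 99 bases. A match describes the letters and is not a binding site.

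GNPNAT1 and UAP1 were called higher in siRNA and the remaining 7 genes were not called. A call here means a q-value under 0.05 in the authors' deposited table, which is their p-value adjusted for multiple tests. The authors' calls covered 1.35% of all genes tested, 0.572% being higher in siRNA and 0.782% lower. Since the list was made with this contrast in view, nothing is read from 2 of 9 against those shares. Of the 9 genes, 8 had a higher value in siRNA. The same held for 48.7% of all tested genes and 53.1% of expressed coding genes. For the same reason, nothing is read from 8 of 9 against these shares. They are also not matched for base content, which moved with change as described below. The median change of the 9 genes was 0.27 on the log2(FPKM + 1) scale, a scale that understates changes of low genes. The median was -0.01 over all tested genes and 0.03 over expressed coding genes. Without the called pair the median of the other 7 was 0.23, an alternative added after seeing the data.

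**Figure D1:**
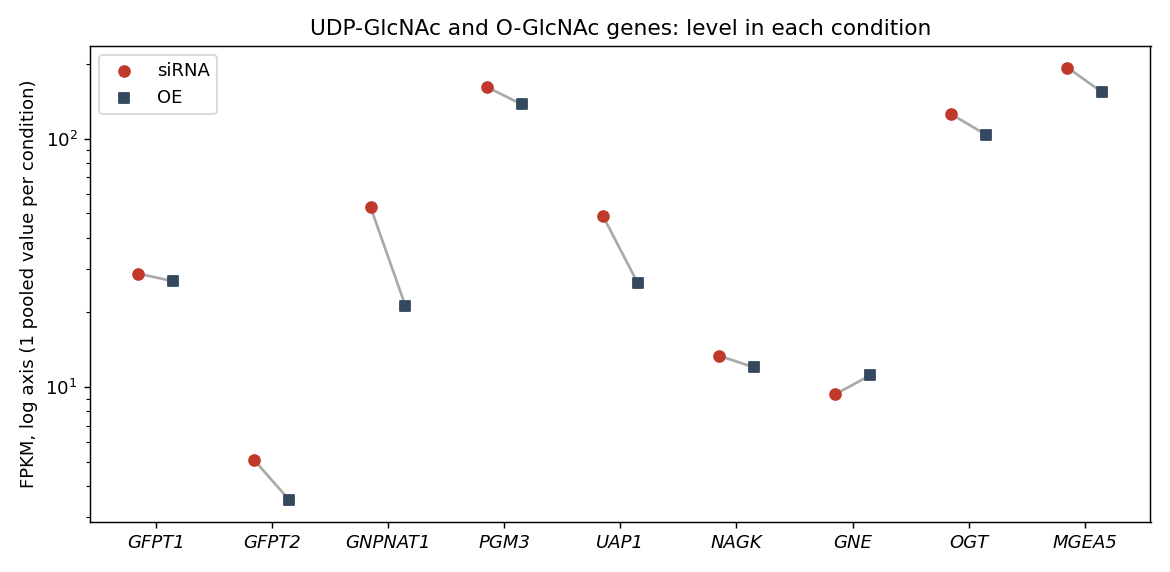
Level of each gene in FPKM on a log axis, with siRNA as circles and OE as squares, 1 pooled value per condition, so without error bars. The steepest lines belong to GNPNAT1 (52.98 FPKM in siRNA, 21.2 FPKM in OE) and UAP1 (48.9 FPKM in siRNA, 26.2 FPKM in OE), and GNE alone is lower in siRNA.

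At the entry step, GFPT1 encodes the amidotransferase that sets the rate of the pathway in most cells. GFPT1 (ENSG00000198380, chromosome 2, 69546905 to 69614382, hg19) was at 28.6 FPKM in siRNA and 26.7 FPKM in OE. These levels differ by 1.07-fold, and the gene was not called (q = 0.999 in the authors' deposited table). GFPT2, its paralog, was at 5.07 FPKM in siRNA and 3.51 FPKM in OE. It was the lowest of the 9 genes in both conditions. Its ratio of 1.44 was not called (q = 0.655 in the authors' deposited table). GFPT1 stood 5.65-fold above GFPT2 in siRNA and 7.59-fold above it in OE. A Y RNA gene at the GFPT1 locus, on the opposite strand, shares no exonic base with GFPT1. That gene was at 10.2 FPKM in siRNA and 41.9 FPKM in OE and was not called.

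The gene of the acetylation step showed the widest RNA ratio of the 9 genes. GNPNAT1, the glucosamine 6-phosphate N-acetyltransferase (ENSG00000100522, chromosome 14, 53241912 to 53258386, hg19), was at 52.98 FPKM in siRNA and 21.2 FPKM in OE. It was 2.50-fold higher, with q = 0.0177 in the authors' deposited table. Its change of 1.28 on the log2(FPKM + 1) scale exceeded that of 99.9% of 12975 expressed coding genes, meaning tested genes with a coding transcript in GENCODE 29 and a mean of at least 1 FPKM. Its level passed 84.7% of those genes in siRNA and 61.8% in OE.

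An antisense gene lies within GNPNAT1. RP11-589M4.1, annotated on the opposite strand, has 1426 exonic bases, and all 1426 fall on exons of GNPNAT1 (GENCODE 29, GRCh38). It was at 37.8 FPKM in siRNA and 16.7 FPKM in OE, 2.26-fold higher, and was not called (q = 0.0864 in the authors' deposited table). The library kit was directional, but whether the counting used strand is not given in the sources used here. Without strand, reads of GNPNAT1 and of this antisense gene cannot be told apart, so the size of the GNPNAT1 difference is uncertain.

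The gene of the mutase step stood high without a call. PGM3, the phosphoacetylglucosamine mutase (ENSG00000013375, chromosome 6), was at 161 FPKM in siRNA and 137.5 FPKM in OE. The level exceeded those of the other 4 synthesis genes in each condition. Its ratio of 1.17 was not called (q = 0.999 in the authors' deposited table). Its locus as deposited spans 131267 bases (83777385 to 83908651, hg19) while the gene spans 32787 bases in GENCODE 29. DOPEY1, on the opposite strand, shares that locus and 1087 exonic bases with PGM3, and was at 24.9 FPKM in siRNA and 23.6 FPKM in OE. The level of PGM3 is therefore uncertain.

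The gene of the last step had a higher RNA level in siRNA. UAP1, the pyrophosphorylase that forms UDP-GlcNAc (ENSG00000117143, chromosome 1, 162531323 to 162569627, hg19), was at 48.9 FPKM in siRNA and 26.2 FPKM in OE. It was 1.87-fold higher, with q = 0.00791, the lowest in the authors' deposited table. UAP1 shares that value with CNBP, HAS2, EIF1AX and DESI2, so the q-value does not rank it above them. Its change of 0.87 on the log2(FPKM + 1) scale exceeded that of 99.3% of expressed coding genes. The other gene at its locus, RP11-359K18.4, shares no exonic base with it and was at 4.28 FPKM in siRNA and 4.81 FPKM in OE. UAP1L1, the UAP1-like gene, was at 10.4 FPKM in siRNA and 11.5 FPKM in OE and was not called.

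The order of the middle genes differed between the conditions. In siRNA the levels of GNPNAT1 and UAP1 were 1.85 and 1.71 times that of GFPT1. In OE they were 0.796 and 0.983 times that of GFPT1. GNPNAT1 ranked 4 and UAP1 ranked 5 among the 9 genes in siRNA, while in OE UAP1 ranked 5 and GNPNAT1 ranked 6. With no spread per condition, neighbours in this order cannot be separated. Summed over the 5 synthesis genes, the level was 297 FPKM in siRNA and 215 FPKM in OE. Without PGM3, which makes up most of the sum in both conditions and whose level is uncertain, it was 135.6 FPKM in siRNA and 77.6 FPKM in OE. Both sums hold GNPNAT1, the size of whose difference is uncertain too.

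Promoters of the called pair are shown because both genes were called higher in siRNA. Each is the 250 bases before the RefSeq start (GRCh38.p14), 5′ to 3′ on the gene's strand, with GGGCGG and its reverse complement CCGCCC in capitals. The GNPNAT1 stretch is chr14:52791608-52791857 on the minus strand, and the UAP1 stretch is chr1:162561281-162561530 on the plus strand.
GNPNAT1: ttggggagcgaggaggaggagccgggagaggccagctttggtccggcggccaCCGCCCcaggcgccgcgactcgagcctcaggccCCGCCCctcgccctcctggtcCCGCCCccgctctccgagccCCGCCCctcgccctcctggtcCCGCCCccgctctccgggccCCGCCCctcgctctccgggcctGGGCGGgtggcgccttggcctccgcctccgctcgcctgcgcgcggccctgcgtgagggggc
UAP1: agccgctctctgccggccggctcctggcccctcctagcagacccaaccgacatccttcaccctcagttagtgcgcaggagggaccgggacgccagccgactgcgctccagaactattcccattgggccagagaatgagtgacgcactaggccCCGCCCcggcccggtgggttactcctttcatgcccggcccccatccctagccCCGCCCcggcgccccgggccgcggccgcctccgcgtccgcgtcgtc

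GGGCGG, the GC box, occurred 7 times before GNPNAT1 and 2 times before UAP1, counting both strands. At least 1 copy was present in 42.6% of 35116 promoters, at least 2 in 24.3% and at least 7 in 1.12%. Those promoters were not matched for base content, and the GNPNAT1 stretch was 80.8% GC and the UAP1 stretch 71.2%, so these shares do not set either gene apart. GFPT1 (80% GC) held 4 copies and GFPT2 (76.8% GC) held 5, and neither was called. MGEA5 held 2, PGM3 and OGT held 1 each, and NAGK and GNE held 0. CCACG, part of the element bound by XBP1, was in neither promoter of the called pair. It occurred 3 times each before GFPT1 and PGM3, 2 times before OGT, and 1 time each before NAGK and GNE. On either strand, 33.5% of all promoters held it. CCAAT was absent before GNPNAT1 and occurred 1 time before UAP1, and 32.0% of all promoters held it. Matches of one motif may share bases with those of another, and no match says only that the letters are not in this window.

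The genes of salvage and diversion of the sugar showed small differences. NAGK, the kinase that returns free GlcNAc to the pathway (ENSG00000124357, chromosome 2), was at 13.4 FPKM in siRNA and 12.0 FPKM in OE. The ratio was 1.11, without a call. Its deposited locus, 71163012 to 71306935 in hg19, also covers 17 other genes, 8 of them tested, and none of those shares an exonic base with NAGK where GENCODE 29 lists it. GNE, the epimerase and kinase that opens sialic acid synthesis (ENSG00000159921, chromosome 9), was at 9.36 FPKM in siRNA and 11.2 FPKM in OE. GNE was the only one of the 9 genes with a lower value in siRNA, at a ratio of 0.839, and was not called (q = 0.999 in the authors' deposited table). CLTA, on the opposite strand of the same locus, shares no exonic base with GNE and was at 73.8 FPKM in siRNA and 84.6 FPKM in OE.

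The genes of the enzymes that cycle O-GlcNAc were among the highest of the 9 in RNA level. OGT (ENSG00000147162, chromosome X, 70752933 to 70795747, hg19) was at 125 FPKM in siRNA and 103.6 FPKM in OE. The ratio of 1.21 was not called (q = 0.999 in the authors' deposited table). MGEA5 (ENSG00000198408, chromosome 10, 103544200 to 103578696, hg19), which removes the modification, was at 193 FPKM in siRNA and 153.5 FPKM in OE. Its ratio of 1.26 was not called either (q = 0.833 in the authors' deposited table). MGEA5 had the highest level of the 9 genes in both conditions. The level of OGT relative to MGEA5 was 0.649 in siRNA and 0.675 in OE. Protein and modification levels were not measured in these data.

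**Figure D2:**
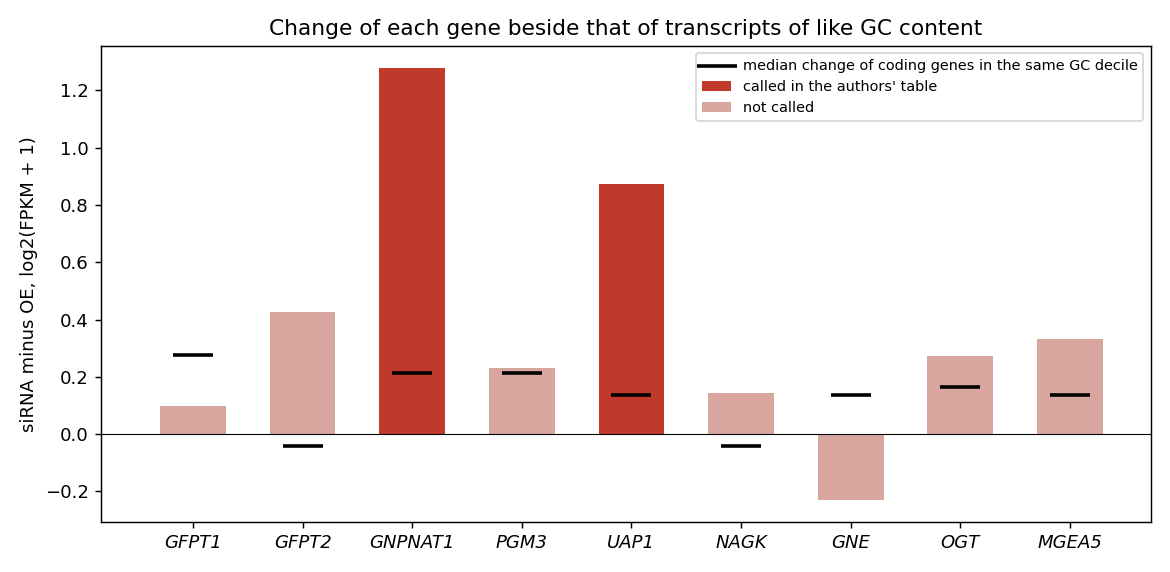
Bars give the change of each gene, siRNA minus OE, in log2(FPKM + 1), dark where called in the authors' deposited table and pale where not; black ticks give the median change of expressed coding genes in the same decile of transcript GC content. GNPNAT1 (1.28 against a tick of 0.21) and UAP1 (0.87 against 0.14) stand well above their ticks, while GFPT1 (0.10 against 0.28) and GNE (-0.23 against 0.14) lie below theirs.

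Base content moved with change across the series, so each gene is set beside transcripts like its own. The longest coding transcripts of the 9 genes had a median GC content of 44.0%, and expressed coding genes 48.6%. In the lowest decile of GC content the median change was 0.28, and in the highest it was -0.22. GNPNAT1, at 39.8% GC, lay in the second decile, where the median was 0.21 and 19 genes of 1297 were called higher. Its change less that median was 1.07. UAP1, at 44.8% GC, lay in the fourth decile, where the median was 0.14, and its change less that median was 0.74. GNPNAT1 lay above 99.8% of its decile and UAP1 above 99.5% of its own. Both were singled out by their change in this same contrast, so these positions are a description only.

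The uncalled genes spread to both sides of their deciles. GFPT2, at 52.0% GC in a decile with a median of -0.04, exceeded 94.3% of that decile, and NAGK exceeded 75.5% of the same decile. PGM3 lay at its decile's median, with a difference of 0.02. GFPT1, at 38.3% GC and in the lowest decile, lay 0.18 below its median and above 27.3% of the decile. GNE lay above 15.6% of its decile. OGT and MGEA5 lay above 64.3% and 74.9% of theirs. In all, 7 of the 9 genes lay above the median of their decile, which is likewise only a description of a list made with the contrast known.

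**Figure D3:**
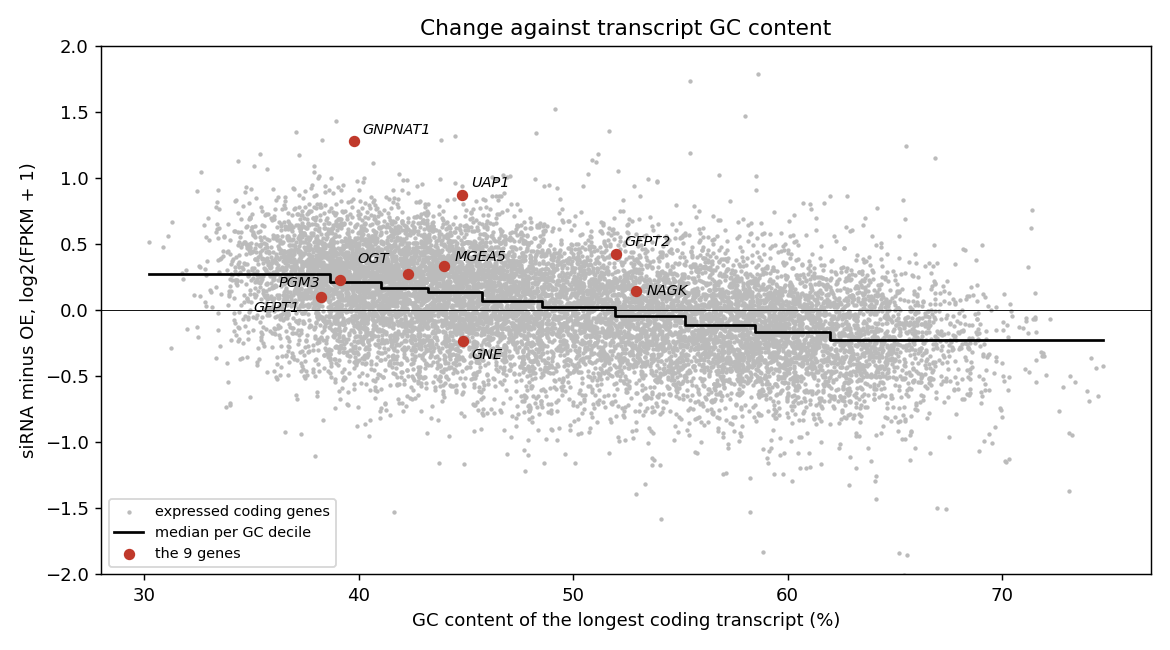
Change of each expressed coding gene, siRNA minus OE in log2(FPKM + 1), against the GC content of its longest coding transcript in percent, with the 9 genes in red and the median per GC decile as a black line; 7 genes fall outside the axis. The line falls from 0.28 to -0.22, and GNPNAT1 and UAP1 lie near the upper edge of the cloud at their GC content.

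Of 100 genes around the pathway, 97 were tested, 2 were called higher and none lower, a share of 2.06%. Over all tested genes 1.35% were called, 0.572% being higher and 0.782% lower. The lists were chosen with earlier results of these data known, so nothing is read from their counts against those shares. Before adjustment, by the p-values that the authors' deposited table lists, 5 of them were higher and 3 lower at a threshold of 0.05, beside 4.51% and 6.41% of all tested genes. Their median change was 0.08 in log2(FPKM + 1). The supply of precursors held no call among 16 genes, with a median of 0.09. GPI, which makes the fructose 6-phosphate that GFPT1 uses, was at 319.7 FPKM in siRNA and 309.7 FPKM in OE. GLUL, the glutamine synthetase, was at 186 FPKM in siRNA and 152.7 FPKM in OE. The glucose transporter genes SLC2A3 (8.50 FPKM in siRNA, 4.30 FPKM in OE) and SLC2A1 (14.9 FPKM in siRNA, 22.7 FPKM in OE) lay on opposite sides, neither called; both were singled out after their values were seen.

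Among 32 tested genes for transferases that use UDP-GlcNAc, 1 was called higher, and the list median was 0.03. HAS2, a hyaluronan synthase that draws on UDP-GlcNAc and UDP-glucuronate, was at 1.28 FPKM in siRNA and 0.462 FPKM in OE. It was 2.76-fold higher, with q = 0.00791 in the authors' deposited table, at levels far under those of the 9 genes. Its mean of 0.869 FPKM lay under the minimum of 1 FPKM used for expressed coding genes. At 36.9% GC it fell in the range of the lowest decile, where 28 of 1298 genes were called higher and 0 lower. MGAT4B, an N-glycan branching enzyme, was at 79.3 FPKM in siRNA and 123 FPKM in OE, and ALG13, which with ALG14 adds the second GlcNAc of the N-glycan precursor, was at 57.2 FPKM in siRNA and 44.97 FPKM in OE, neither called. PIGA, of GPI anchor synthesis, was singled out after its values were seen. It was at 22.9 FPKM in siRNA and 8.77 FPKM in OE, a change of 1.29 in log2(FPKM + 1), and the authors' deposited table gives it q = 0.675.

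Of 12 genes for OGT partners and regulators of the pathway, 1 was called higher, and the median was 0.10. TET1, a 5-methylcytosine dioxygenase of the family that binds OGT, was at 16.1 FPKM in siRNA and 10.4 FPKM in OE. It was 1.54-fold higher, with q = 0.0358 in the authors' deposited table. At 41.0% GC it lay in the third decile, where 14 of 1298 genes were called higher and 0 lower. TET2 was at 6.53 FPKM in siRNA and 6.18 FPKM in OE, and TET3 at 8.11 FPKM in siRNA and 8.47 FPKM in OE, neither called. HCFC1, which OGT modifies and cleaves, was at 30.4 FPKM in siRNA and 49.4 FPKM in OE, without a call; TET2, TET3 and HCFC1 were named after their values were seen. ATF4, a stress-response transcription factor, was at 161 FPKM in siRNA and 178 FPKM in OE. PPP1R12A, a myosin phosphatase subunit, was at 76.95 FPKM in siRNA and 55.4 FPKM in OE.

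No gene was called in the other 4 lists. Amino sugar salvage and turnover (9 genes) had a median of -0.05, with HEXA, which encodes a lysosomal enzyme subunit, at 33.1 FPKM in siRNA and 34.3 FPKM in OE. Sialic acid synthesis (6 genes) had a median of 0.12, with CMAS, which activates sialic acid, at 59.6 FPKM in siRNA and 59.9 FPKM in OE, and NANS, the sialic acid synthase, at 31.1 FPKM in siRNA and 29.7 FPKM in OE. Other nucleotide sugar synthesis (17 genes) had a median of 0.08, with MPI, the mannose 6-phosphate isomerase, at 58.1 FPKM in siRNA and 56.7 FPKM in OE and the galactokinase GALK1 at 24.1 FPKM in siRNA and 33.4 FPKM in OE. The transporters of UDP sugars (5 genes) had a median of 0.24. SLC35B4 was at 29.6 FPKM in siRNA and 21.5 FPKM in OE. The Golgi UDP-GlcNAc transporter SLC35A3 was at 14.0 FPKM in siRNA and 11.3 FPKM in OE. The median GC content of these lists was, in the order given, 53.8%, 44.8%, 53.0% and 43.9%. Expressed coding genes had a median change of -0.04 in the decile holding 53.8% and 53.0%. It was 0.14 in the decile holding 44.8% and 43.9%. The list medians were not centred on GC content, so differences between lists are a description only.

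**Figure D4:**
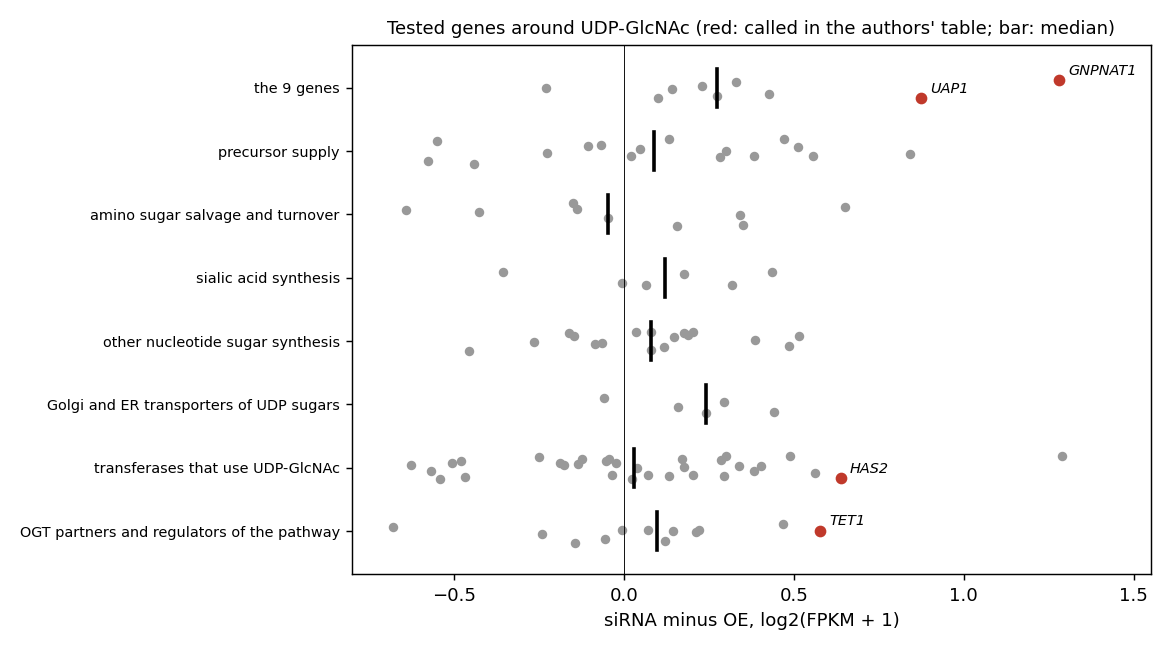
Change of each tested gene, siRNA minus OE in log2(FPKM + 1), for the 9 genes in the top row and for the 7 surrounding lists below, with red points for genes called in the authors' deposited table and a black bar at each median. Called genes are GNPNAT1, UAP1, HAS2 and TET1, all to the right of 0, and the unlabelled point at 1.29 among the transferases is PIGA, which was not called.

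The pattern of GNPNAT1 rests on 2 values, so likeness to it was measured as the distance between pairs of log2(FPKM + 1) levels over the 2 conditions. The 5 nearest tested genes were all small RNA genes, among them a Y RNA (distance 0.04) and a U13 small nucleolar RNA (distance 0.07). None of them was called, with q-values between 0.979 and 0.999 in the authors' deposited table. The deposited locus of that U13 gene, 93394805 to 93547861 on chromosome 11, is much longer than a small RNA. Levels of such genes are uncertain, so little is read from this likeness. Among expressed coding genes, a restriction added after seeing the data, the nearest were EIF1AX (distance 0.15) and DESI2 (distance 0.21). EIF1AX, a translation initiation factor, was at 51.2 FPKM in siRNA and 23.5 FPKM in OE. DESI2 was at 48.1 FPKM in siRNA and 23.8 FPKM in OE. Both were called, with q = 0.00791 in the authors' deposited table. PUS7, SEMA6A and HOOK2 followed and were not called.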

How the data were processed

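RNA libraries of HEK293 cells were made with a directional kit, per the labels' protocols. TopHat, Cufflinks, Cuffdiff and the hg19 build are named, per the submitters' processing notes; their versions and settings, and the annotation, were not given in the sources used here. The authors deposited 1 table with an FPKM value per gene for each of 2 conditions, and a p-value and q-value from their own comparison. The labels put 4 samples in CNBP knockdown and 3 in control knockdown, but the table has no value per sample, so no test was run here and depth is unknown. The q-values may measure technical spread, since separate cultures are not stated.

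Members and lists were chosen with earlier results of these data known. Named genes were the 9 members, CNBP, up to 3 called genes per direction and the 2 most abundant genes of each list, and the 5 nearest to GNPNAT1. Of the genes this rule picks, 1 is not reported here. Changes are log2(FPKM + 1) in siRNA minus OE. Calls needed status tested and a q-value under 0.05. Locus starts were printed after adding 1; the resulting lengths of GNPNAT1, GFPT2 and OGT equal those in GENCODE 29. GENCODE 29 and RefSeq tables are of a later build and gave gene types, base content, exon overlap and sequences, joined by gene ID or symbol; all 9 genes matched, MGEA5 as OGA among promoters. Base content is that of the longest coding transcript, in 10 deciles over 12975 genes. The coding start is from a principal transcript with the longest coding sequence. The adjustment and decile steps were tested on simulated data. Python 3.11.15, numpy 2.4.6, pandas 2.3.3 and matplotlib 3.10.9 were used.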

Additional observations from a re-analysis of the deposited data

How the results depend on the processing

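The median change of the 9 genes lay between 0.18 and 0.28 (log2) under other pseudocounts, filters on low values, scaling by the median ratio, centring on the GC decile, or without the called pair. GNPNAT1 stayed between 1.07 and 1.32 and UAP1 between 0.74 and 0.90 under other pseudocounts, scaling and centring. GFPT1, which was not called, lay between -0.18 and 0.10, negative once centred on its decile. Of 59 values of single genes and lists under alternatives, 10 moved by at least 0.1, and 7 of those were members centred on their decile.

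At a q-value under 0.01, 1 of the 9 genes was called, UAP1. Among all tested genes 70 were then higher and 87 lower, and 1 gene of the lists was higher. At a q-value under 0.1 all tested genes gave 240 higher and 335 lower; at a p-value under 0.05 without adjustment they gave 1120 higher and 1592 lower, and the lists 5 higher and 3 lower; with a mean of at least 10 FPKM they gave 78 higher and 71 lower. These counts follow from the threshold or from fewer genes entering. Under each of these settings other than a q-value under 0.01, the 9 genes gave 2 higher and none lower. No paired analysis was possible because only pooled values per condition were deposited in the table used, and no replicate could be left out for that reason. How far depth limits the calls cannot be given.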
